A study of Zea mays with 12 samples.

Results

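The maize genes his1, his2b5 and pcna2 supply proteins that package DNA and copy it. They were followed on every probe set that the array's annotation assigns to them, which gave 6 probe sets for his1, 1 for his2b5 and 1 for pcna2, or 8 of the 17734 probe sets on the array and 3 of the 1108 genes named by that annotation. A probe set is a group of short oligonucleotides that together read 1 transcript. The 3 names stand in a RefSeq gene table as synonyms of the current locus numbers. Of the 8 probe sets, 5 passed the filter on dim signal and were tested: 3 for his1, 1 for his2b5 and 1 for pcna2. The tested his1 probe sets are here called set 1, set 2 and set 3, from the brightest to the dimmest by mean signal.

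The his1 gene encodes a linker histone of the H1 type, which binds the DNA between nucleosomes and helps to fold the chromatin fibre. The his2b5 gene encodes a histone H2B, a subunit of the nucleosome core. The pcna2 gene encodes proliferating cell nuclear antigen, a ring-shaped clamp that slides along DNA and holds the polymerase on its template. In the maize endosperm, the storage tissue of the kernel, inner cells stop dividing during grain filling and go on to copy their DNA without division, which is called endoreduplication, and each new DNA copy has to be packed with histones.

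Transcripts were measured in endosperm collected 19 days after pollination from 4 genotypes: the reciprocal hybrids B73xMo17 and Mo17xB73 and the inbred lines B73 and Mo17. Endosperm is triploid with 2 maternal doses and 1 paternal dose, so B73xMo17 carries 2 doses of the B73 alleles and Mo17xB73 carries 1. By the usual notation, which the labels do not spell out, the name before the x is the seed parent. There were 3 replicates of each genotype, 12 arrays in all, each array holding RNA of 36 endosperms taken as 6 from each of 6 ears of field-grown plants. Replicates 1, 2 and 3 came from 3 crossing dates, and the crosses of all genotypes on a date were made within 30 minutes. No treatment was given.

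The values are deposited MAS5 signals on a linear scale, and differences are given on the log2(signal + 10.6) scale, on which changes of dim probe sets are understated. Adjusted p is from limma fitted to 11747 probe sets, with the Benjamini-Hochberg method and a threshold of 0.05, and "called" means below it. The arrays differed in brightness. The trimmed mean signal was 343 ± 6.96 in B73xMo17, 387 ± 20.8 in Mo17xB73, 332 ± 30.0 in B73 and 391 ± 80.4 in Mo17 (SD, n = 3 each), and the Mo17 array of replicate 1 was the dimmest of the 12 at 299.7. The median difference over all tested probe sets was therefore -0.22 for B73 minus Mo17 and -0.14 for B73xMo17 minus Mo17xB73. Of the calls between the inbreds, 31.4% were higher in B73, and 47.4% to 50.4% after each of 3 scalings of the arrays. Of the calls between the hybrids, 26.1% were higher in B73xMo17, and 52.8% to 55.7% after scaling. The tissue label was checked with 12 endosperm marker genes, all of which passed the filter. Their summed signal was 117802 to 125098 in B73xMo17, 105887 to 120621 in Mo17xB73, 114412 to 127525 in B73 and 86964 to 101984 in Mo17, so the 3 Mo17 arrays were the lowest, as they were for his2b5. The delta zein gene dzs18, 1 of the 12, averaged 16753, 10529, 15200 and 45.2 units in that order. Much of the gap between B73 and Mo17 thus came from this gene. Of the 12 genes, 3 were called higher and 0 lower in B73 than in Mo17, beside 13.5% and 29.5% of all tested probe sets. After quantile normalization, median centring and trimmed mean scaling, 6, 8 and 7 were called higher and 0 lower. These are 50%, 66.7% and 58.3% of the list, beside 48.5%, 47.6% and 48.0% of all. The part of the low Mo17 sum in the his2b5 difference was not tested. On all 12 arrays 7 green and maternal tissue markers summed to 159 to 209. Only 2 of the 7 were tested, the others being too dim. Of these, 1 was called higher in B73 than in Mo17, beside 13.5% of all tested probe sets. In B73xMo17 minus Mo17, 1 was called higher, beside 10.9% of all.

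All 5 tested probe sets differed between the inbreds. The his2b5 probe set was higher in B73 than in Mo17, and the 3 his1 probe sets and pcna2 were lower. In this comparison 43.1% of all tested probe sets were called, so a call by itself does not set these genes apart, while the his2b5 difference was larger in size than 98.6% and the pcna2 difference larger than 93.1% of all tested differences. The B73xMo17 hybrid differed from Mo17 on 5 of 5 probe sets, where 29.5% of all were called, and from B73 on 0 of 5, where 4.99% were called. No member had an unadjusted p under 0.05 in the comparison of B73xMo17 with B73. The Mo17xB73 hybrid differed from B73 on 3 of 5, where 27% were called, and from Mo17 on 1 of 5, where 6.47% were called. Without Mo17 replicate 1 that last count was 4 of 5, because his1 set 2 (-0.69, adjusted p = 0.0456), his1 set 3 (-0.75, adjusted p = 0.0163) and pcna2 (-0.68, adjusted p = 0.0478) were then called lower in Mo17xB73. In that fit 1567 of all 11747 tested probe sets were called, against 760 with all arrays. Between the reciprocal hybrids 1 of 5 was called, pcna2, where 11.9% of all were called. These comparisons share arrays and are not independent of each other. Of the 5 probe sets 3 read his1, so each count covers 3 genes. The arrays were not matched here to the sequence of either inbred, so a difference in transcript level and a difference in how well B73 and Mo17 transcripts bind the probes cannot be told apart, nor, in pooled tissue, can fewer cells of a type and less RNA per cell.

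**Figure D1:**
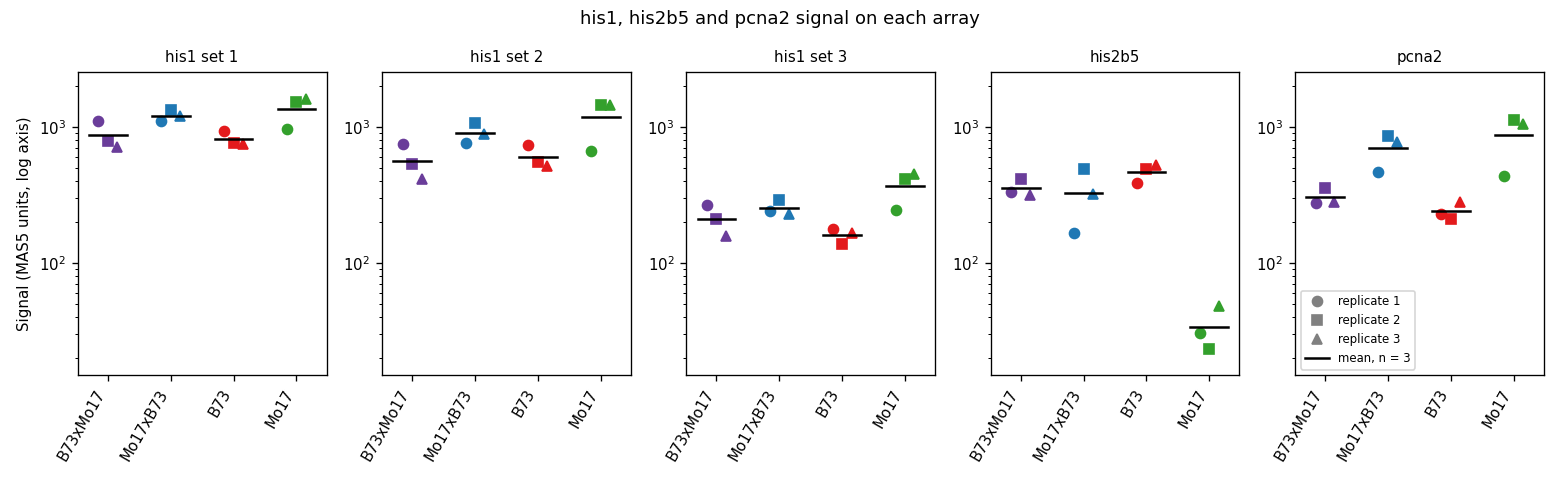
Signal of the 5 tested probe sets on each of the 12 arrays, in MAS5 units on a log axis, by genotype, with a marker for each replicate and a line at the mean of 3. The his1 and pcna2 panels have their highest means in Mo17, and in the his2b5 panel the 3 Mo17 arrays lie between 23.6 and 48.1, below all other arrays.

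The linker histone gene his1 had its lower levels in B73 and B73xMo17 and its higher levels in Mo17xB73 and Mo17. Its brightest probe set, set 1, read 1099, 783 and 710 signal units in B73xMo17 (replicates 1, 2 and 3), 1093, 1316 and 1205 in Mo17xB73, 925, 754 and 744 in B73, and 958, 1513 and 1597 in Mo17. The 3 Mo17 arrays were all above the 3 B73 arrays, but the Mo17 array of replicate 1 exceeded the highest B73 array only narrowly. Set 2 read 746, 535 and 410 in B73xMo17, 765, 1058 and 879 in Mo17xB73, 733, 547 and 512 in B73, and 661, 1454 and 1441 in Mo17. Here the inbreds overlapped, because replicate 1 was the highest of the B73 arrays and the lowest of the Mo17 arrays, while all 3 Mo17xB73 arrays were above all 3 B73xMo17 arrays. Set 3 read 266, 211 and 159 in B73xMo17, 240, 288 and 230 in Mo17xB73, 179, 137 and 165 in B73, and 247, 412 and 450 in Mo17, without overlap between the inbreds and with overlap between the hybrids.

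Averaged over replicates, his1 set 1 stood at 864 ± 207 in B73xMo17, 1204 ± 111 in Mo17xB73, 808 ± 102 in B73 and 1356 ± 347 in Mo17 (SD, n = 3 each). The order of genotypes was Mo17, Mo17xB73, B73xMo17 and B73, and no pair of neighbours in that order was called different. B73 was lower than Mo17 by 1.64-fold on his1 set 1 (log2 difference -0.71, SE 0.209, limma adjusted p = 0.00942), by 1.87-fold on his1 set 2 (-0.91, SE 0.268, adjusted p = 0.0100) and by 2.17-fold on his1 set 3 (-1.12, SE 0.220, adjusted p = 0.00038). After scaling, these differences were smaller, at -0.48 to -0.50, -0.66 to -0.69 and -0.88 to -0.91, and all stayed called. The calls of the brighter pair of probe sets rested on Mo17 replicates 2 and 3. Without Mo17 replicate 2 the adjusted p was 0.0520 for his1 set 1 and 0.0647 for his1 set 2, and without Mo17 replicate 3 it was 0.0510 and 0.0561. Without Mo17 replicate 1 the differences were -0.94 and -1.28. The call of his1 set 3 held under all 25 alternatives.

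B73xMo17 was also lower than Mo17 in his1, with log2 differences of -0.63 (adjusted p = 0.0270) for his1 set 1, -1.01 (adjusted p = 0.00745) for his1 set 2 and -0.76 (adjusted p = 0.0134) for his1 set 3. Each of these calls was lost when B73xMo17 replicate 3 or Mo17 replicate 2 was left out, with adjusted p between 0.0521 and 0.136. Without Mo17 replicate 3, his1 set 1 (adjusted p = 0.122) and his1 set 3 (0.0779) lost theirs, and without B73xMo17 replicate 2 his1 set 1 did (0.0939). Mo17xB73 was higher than B73 on his1 set 1 (0.57, adjusted p = 0.0472) and his1 set 3 (0.62, adjusted p = 0.0418), and both calls ended after each of the 3 scalings, with differences of 0.33 to 0.35 and 0.38 to 0.41. Both calls were also lost without any 1 of the Mo17xB73 replicates 1, 2 and 3 or the B73 replicates 2 and 3, with adjusted p of 0.0625 to 0.161. Between the hybrids, B73xMo17 minus Mo17xB73, no his1 difference was called. Those differences were -0.50 for his1 set 1 (95% interval -0.93 to -0.06, adjusted p = 0.130), -0.69 for his1 set 2 (-1.25 to -0.13, adjusted p = 0.0983) and -0.26 for his1 set 3 (-0.72 to 0.20, adjusted p = 0.473). With Mo17 replicate 1 left out of the fit, the same differences of the brighter pair were called, at adjusted p = 0.0317 and 0.0181. That fit called 2649 of all 11747 tested probe sets between the hybrids, against 1398 with all arrays.

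The other 3 his1 probe sets were designed from the same source sequence as set 3. They averaged 24.6, 24.1 and 14.3 units over the 12 arrays, under the mean signal of 27.4 below which probe sets were not tested. Their highest single value was 51.0, on a Mo17 array. The 6 his1 probe sets thus divide into 3 that were tested and 3 dim ones. The dim ones were brighter than 23.6% to 31.7% of all probe sets other than controls. Their probe sequences were not examined, so whether they read the his1 transcript is not known here. By the manufacturer's naming, probe sets ending in x_at hold probes that also match other transcripts, so the signal of all 3 tested his1 probe sets may include related H1 transcripts.

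The core histone gene his2b5 was the member with the widest range, and it ran in the other direction from his1. Its probe set read 333, 412 and 316 units in B73xMo17, 167, 493 and 320 in Mo17xB73, 384, 486 and 525 in B73, and 30.7, 23.6 and 48.1 in Mo17. The 3 Mo17 arrays were far below the 9 others and near the level of the filter, and whether the Mo17 signal exceeds background was not tested. The means were 354 ± 50.9 in B73xMo17, 327 ± 163 in Mo17xB73, 465 ± 73.3 in B73 and 34.1 ± 12.6 in Mo17 (SD, n = 3 each). The log2(signal + 10.6) difference of B73 from Mo17 was 3.44 (SE 0.278, adjusted p = 3.43e-09), a scale on which the added constant and any background in the dim Mo17 signal reduce the difference, so no fold is given, and the difference lay between 2.74 and 3.78 under 25 alternatives, all called.

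Both hybrids were far above Mo17 in his2b5. The log2 difference from Mo17 was 3.05 in B73xMo17 (adjusted p = 4.66e-08) and 2.83 in Mo17xB73 (adjusted p = 2.58e-07), called under all alternatives. The order of genotypes was B73, B73xMo17, Mo17xB73 and Mo17, and the step from Mo17xB73 to Mo17 was the only one between neighbours that was called. B73xMo17 minus B73 was -0.38 (95% interval -0.96 to 0.20, adjusted p = 0.633). B73xMo17 minus Mo17xB73 was 0.23 (-0.35 to 0.81, adjusted p = 0.642). The Mo17xB73 arrays spread widely, from 167 in replicate 1 to 493 in replicate 2. Mo17xB73 minus B73 was -0.61 (adjusted p = 0.109), and it was called after each of the 3 scalings, at -0.83 to -0.85 with adjusted p of at most 0.0439, and without Mo17xB73 replicate 2, at -0.96.

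The clamp gene pcna2 divided the genotypes by their seed parent. It read 276, 355 and 281 units in B73xMo17, 469, 852 and 767 in Mo17xB73, 230, 210 and 281 in B73, and 438, 1112 and 1055 in Mo17. All 6 arrays of B73xMo17 and B73 were below all 6 arrays of Mo17xB73 and Mo17. The share of all tested probe sets that separate in this way is not given here. The seed parent also supplies 2 doses of its alleles, so seed parent and dose cannot be told apart in this division. The means were 304 ± 44.0 in B73xMo17, 696 ± 201 in Mo17xB73, 241 ± 36.8 in B73 and 868 ± 374 in Mo17 (SD, n = 3 each). The 2 arrays at the low edge of the high pair of genotypes were both from replicate 1.

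B73 was 3.26-fold lower than Mo17 in pcna2 (log2 difference -1.70, SE 0.283, adjusted p = 6.01e-05), and the call held under all 25 alternatives, between -1.38 and -2.13. B73xMo17 was 2.19-fold lower than Mo17xB73 (-1.13, SE 0.283, 95% interval -1.72 to -0.54, adjusted p = 0.0124). That call held after each scaling, at -0.96 with adjusted p of at most 0.0128, but it was lost without B73xMo17 replicate 3 (adjusted p = 0.0506), without Mo17xB73 replicate 2 (0.0740) and without Mo17xB73 replicate 3 (0.0587). B73xMo17 was lower than Mo17 (-1.38, adjusted p = 0.000989) and Mo17xB73 was higher than B73 (1.46, adjusted p = 0.000648), both under all alternatives. In the order Mo17, Mo17xB73, B73xMo17 and B73, the step between the hybrids was the only one called. Mo17xB73 minus Mo17 was -0.25 (95% interval -0.84 to 0.34, adjusted p = 0.805), and -0.68 (adjusted p = 0.0478) without Mo17 replicate 1. B73xMo17 minus B73 was 0.33 (-0.26 to 0.92, adjusted p = 0.720).

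**Figure D2:**
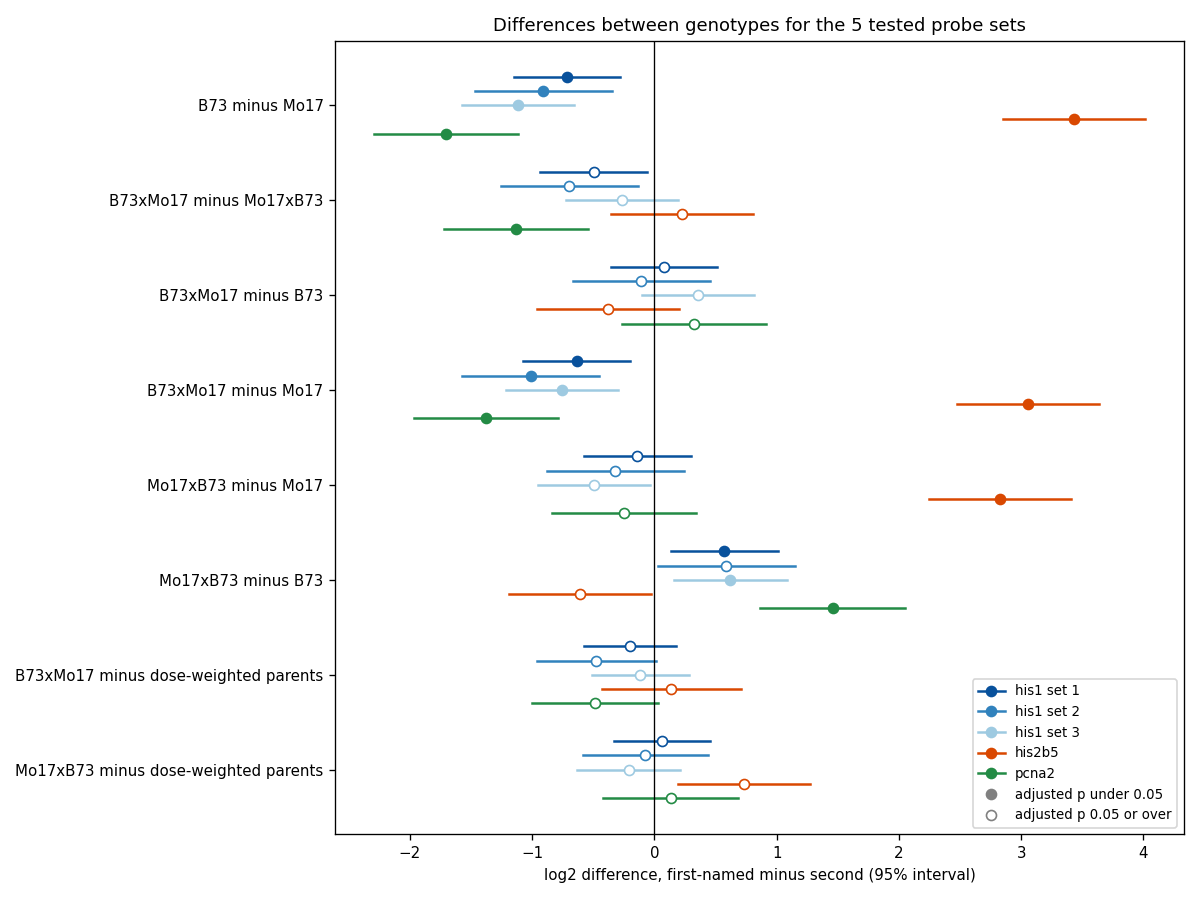
Log2 differences of the 5 tested probe sets in 8 comparisons, with 95% intervals from limma, filled where the adjusted p is under 0.05. In B73 minus Mo17 all 5 points are filled, with his2b5 at 3.44 on the right and pcna2 at -1.70 furthest to the left, and in both dose comparisons at the bottom no point is filled.

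Each hybrid was then set against the level that parental dose alone would give, the mean of the parents' signals weighted 0.667 for the seed parent and 0.333 for the pollen parent. With all arrays, no member was called different from it in either hybrid. Over all tested probe sets 0.715% departed in B73xMo17 (84 probe sets, and 169 with crossing date as a replicate block) and 0.57% in Mo17xB73 (67, and 164 with the block). The differences between hybrid and expectation in B73xMo17 ran from -0.48 for pcna2 (95% interval -0.998 to 0.033) to 0.14 for his2b5 (-0.43 to 0.71), and none of the 5 had an unadjusted p under 0.05. The pcna2 difference was called without Mo17 replicate 1 (-0.76, adjusted p = 0.0348), and without the arrays of replicate 1 pcna2 (-0.71, adjusted p = 0.00998), his1 set 1 (-0.44, adjusted p = 0.0298) and his1 set 2 (-0.82, adjusted p = 0.00243) were called lower than expected. Those 2 fits called 320 and 923 of all tested probe sets, against 84 with all arrays. In Mo17xB73 the differences from expectation ran from -0.21 for his1 set 3 (-0.63 to 0.21) to 0.73 for his2b5 (0.19 to 1.27), the only member with an unadjusted p under 0.05 (0.0104, adjusted p = 0.321).

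The his2b5 signal measured in B73xMo17 was 354 units, against 321 expected under dose, and in Mo17xB73 it was 327 units, against 178 expected. On a scale with 0 at the Mo17 mean and 1 at the B73 mean, his2b5 was at 0.742 in B73xMo17 and 0.679 in Mo17xB73, while pcna2 was at 0.899 in B73xMo17 and 0.275 in Mo17xB73. The his2b5 departure in Mo17xB73 depended on the scale of the expectation, and weighting the parents' log2 levels in place of their signals made it 1.68 (adjusted p = 0.000114). It also passed without Mo17xB73 replicate 1, the lowest of the 3 arrays, at 1.13 (adjusted p = 0.0364), and without the arrays of replicate 1, at 1.02 (adjusted p = 0.0405). Those fits called 37 and 140 of all tested probe sets as departing in Mo17xB73. The difference between the hybrids in departure from dose was called for 0 of 5 members, against 2.24% of all probe sets (263, and 506 with the replicate block). It was -0.59 for his2b5 (adjusted p = 0.378) and -0.62 for pcna2 (adjusted p = 0.382), both with an unadjusted p under 0.05. Without Mo17xB73 replicate 1 the his2b5 value was -0.99 and called (adjusted p = 0.0389). Without the arrays of replicate 1, his2b5 (-0.97, adjusted p = 0.0272), pcna2 (-0.72, adjusted p = 0.0220) and his1 set 2 (-0.58, adjusted p = 0.0485) were called. In that fit 676 of all tested probe sets were called, against 263 with all arrays.

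The his1 differences lay nearer 0 among the arrays of replicate 1 than on the other crossing dates. They are from signals not scaled for array brightness, which also differed by date. The trimmed mean signals of B73 and Mo17 were 302 and 299.7 in replicate 1, 331 and 421 in replicate 2, and 362 and 452 in replicate 3. Those of B73xMo17 and Mo17xB73 were 348 and 378, 346 and 372, and 335 and 411. The part of array brightness in this contrast between dates was not tested. Within the arrays of replicate 1, B73 minus Mo17 was -0.05 for his1 set 1, 0.15 for his1 set 2 and -0.44 for his1 set 3, whereas it was -0.99, -1.39 and -1.52 within replicate 2 and -1.09, -1.47 and -1.39 within replicate 3. The reciprocal difference in his1 had the same division, at 0.01, -0.04 and 0.14 within replicate 1, and from -0.43 to -1.08 within the other dates. Without the arrays of replicate 1, a choice made after the values were seen, the reciprocal his1 differences were -0.75 (adjusted p = 0.00105), -1.02 (adjusted p = 0.000316) and -0.47 (adjusted p = 0.0675). That fit called 2854 of all 11747 tested probe sets between the hybrids, against 1398 with all arrays. Without replicate 2 the inbred differences of the brighter pair were -0.57 (adjusted p = 0.201) and -0.66 (adjusted p = 0.188), and without replicate 3 they were -0.52 (adjusted p = 0.169) and -0.62 (adjusted p = 0.131).

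The clamp and core histone differences between the inbreds were present on each date. For pcna2, B73 minus Mo17 was -0.90, -2.35 and -1.87 within replicates 1, 2 and 3, and B73xMo17 minus Mo17xB73 was -0.74, -1.24 and -1.41. For his2b5, B73 minus Mo17 was 3.25, 3.86 and 3.19, while B73xMo17 minus Mo17xB73 was 0.95, -0.25 and -0.02. Whether the effect of genotype on his1 differs between dates was not tested, since each date has 1 array per genotype.

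**Figure D3:**
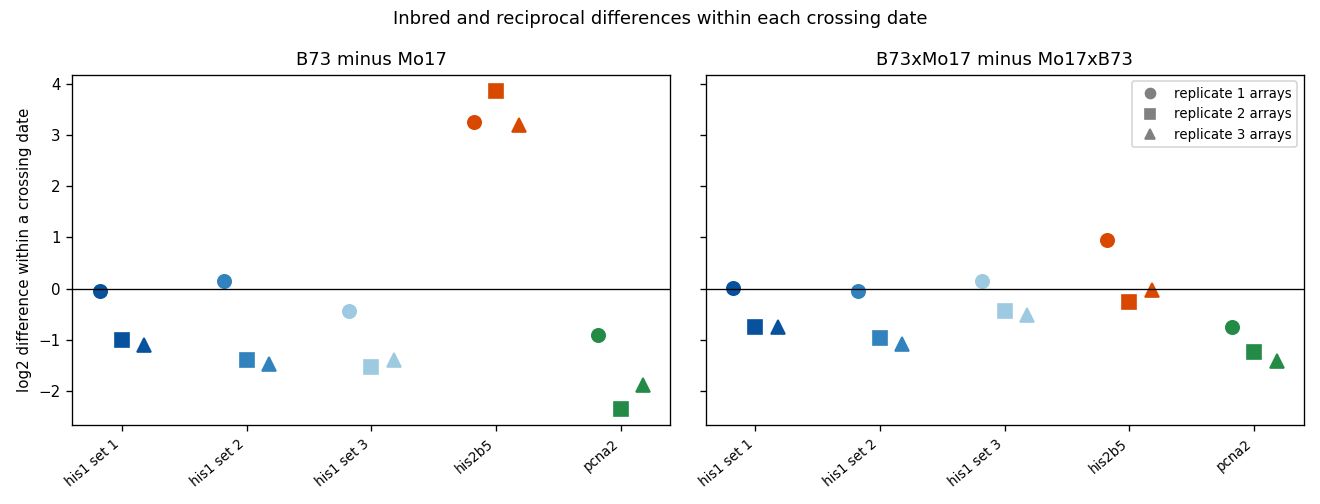
Log2 differences within each crossing date for the 5 tested probe sets, for B73 minus Mo17 on the left and B73xMo17 minus Mo17xB73 on the right, 1 point per date. Signals were not scaled for array brightness. The his1 points of replicate 1 lie nearer 0 than those of replicates 2 and 3 in both panels, and the pcna2 points are below 0 on all dates.

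Markers of other kernel tissues also differed between the genotypes. Of 12 genes of the basal transfer layer, the endosperm cells that take up nutrients from the mother plant, 10 were tested, MRP1 and bap-3a being too dim, and 7 were lower in B73 than in Mo17, and 9 were lower in B73xMo17 than in Mo17xB73, beside 29.5% and 8.79% of all tested probe sets called lower in these comparisons. Their summed signal was 2904 to 4058 in B73xMo17, 10634 to 12539 in Mo17xB73, 2360 to 2802 in B73 and 6241 to 12943 in Mo17, a division of the genotypes like that of pcna2. Of 8 embryo markers, 3 of 5 tested were lower in B73 than in Mo17 and 2 of 5 lower in B73xMo17 than in Mo17xB73, led by the storage globulin gene glb1, while glb2, EMB5 and kn1 were too dim to test. Without 1 array at a time these embryo counts were 2 to 3 and 1 to 3. After each of the 3 scalings the inbred count stayed at 3. The call of the embryo marker ole1 between the hybrids ended after each scaling (adjusted p = 0.0518 to 0.0574). The embryo sum was 1753, 727 and 676 in B73xMo17 (replicates 1, 2 and 3), 1866, 2270 and 2677 in Mo17xB73, 919, 493 and 796 in B73, and 1320, 2045 and 2340 in Mo17. Within both B73xMo17 and B73 the array of replicate 1 had the highest embryo sum and the highest his1 signal on his1 set 1 and his1 set 2, and within both Mo17xB73 and Mo17 it had the lowest of each. On his1 set 3 this held in the other genotypes but not in Mo17xB73, where replicate 1 read 240 and replicate 3 read 230. The aleurone and outer layer markers did not move together between the inbreds: of 4 genes 3 were tested, c1 being too dim, and PLTP was higher in B73 than in Mo17 (3.41, adjusted p = 6.58e-05), while per-1 (-2.30, adjusted p = 0.000181) and vpp1 (-0.81, adjusted p = 0.00285) were lower. Between the hybrids per-1 and vpp1 were called lower in B73xMo17, and the median of the 3 genes was -1.29. PLTP was not called there with all arrays. It was called lower in B73xMo17 without B73xMo17 replicate 1 (-2.16, adjusted p = 0.00613) and without the arrays of replicate 1 (-2.09, adjusted p = 0.000428). The sum over the 4 genes was 2347, 1052 and 914 in B73xMo17, 2682, 2811 and 3407 in Mo17xB73, 2742, 1111 and 1417 in B73, and 1609, 2478 and 2396 in Mo17, so the B73 array of replicate 1 was above all 3 Mo17 arrays. All 3 B73xMo17 arrays were below all 3 Mo17xB73 arrays. The part of these tissues in the his1 and pcna2 differences was not tested.

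The members were also compared in their pattern over the 12 arrays, which fall into 4 genotypes, so these correlations of log2 signal are descriptions and largely restate the differences between genotypes. The his1 probe sets were alike: his1 set 1 and his1 set 2 correlated at 0.978, and each was the closest of 11746 other probe sets to the other. With his1 set 3 they correlated at 0.928 and 0.905. The his1 probe sets correlated with pcna2 at 0.858 to 0.880, and by likeness to his1 set 1, his1 set 2 and his1 set 3, pcna2 held ranks 387, 352 and 595 among the other probe sets. The his2b5 probe set correlated negatively with all other members, from -0.579 to -0.715.

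Among named genes, the closest to his1 set 1 were vpp1, which encodes a proton-pumping pyrophosphatase of the vacuole and is also one of the aleurone and outer layer markers (0.956), lon1 (0.934), sbip1b (0.931), nfc101, a chromatin assembly factor gene (0.928), and fea2 (0.922). vpp1 was the closest named gene to his1 set 2 as well (0.924), and HP3 was the closest to his1 set 3 (0.932). The closest to his2b5 were the tubulin gene tub6 (0.983), the delta zein storage protein gene dzs18 (0.962), PDC (0.951), HMT-2 (0.951) and glct1 (0.947). tub6 averaged 476 units in B73xMo17, 437 in Mo17xB73, 767 in B73 and 47.5 in Mo17, and was the second closest of all probe sets to his2b5. The closest to pcna2 were CNX (0.978), arpp3, an acidic ribosomal protein gene (0.970), elfa3, an elongation factor gene (0.968), vdac2 (0.966) and met5 (0.964).

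Other genes for histones and for DNA replication were read from lists that include the members, on the brightest probe set of each. Of 5 histone genes, B73 was higher than Mo17 in 1, his2b5, and lower in 2, his1 and hon101, another H1-type linker histone gene, which is 60% of the list beside 43.1% of all probe sets, with a median of 0.12 against -0.22 over all. hon101 averaged 1276 ± 326 units in B73xMo17, 2076 ± 282 in Mo17xB73, 1116 ± 294 in B73 and 1820 ± 319 in Mo17 (SD, n = 3 each). Its difference was -0.72 between the inbreds (adjusted p = 0.0104) and -0.72 between the hybrids, B73xMo17 minus Mo17xB73 (adjusted p = 0.0323), and neither call held after any of the 3 scalings. The inbred call was also lost without B73 replicate 3 or Mo17 replicate 2, and the hybrid call without B73xMo17 replicate 2 or 3 or any 1 Mo17xB73 array (adjusted p = 0.0569 to 0.184). The histone gene his1a (0.12, adjusted p = 0.513) and cenH3, the centromeric H3 variant (0.21, adjusted p = 0.381), were not called between the inbreds as deposited, but both were called higher in B73 after each scaling, at 0.30 to 0.34 and 0.40 to 0.43.

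Of 8 DNA replication genes, B73 was higher than Mo17 in MCM6 and lower in pcna2 and pcna1, which is 37.5% of the list beside 43.1% of all probe sets, with a median of -0.20 against -0.22 over all. The second clamp gene, pcna1, read 220, 349 and 250 units in B73xMo17, 354, 684 and 579 in Mo17xB73, 248, 274 and 300.3 in B73, and 318, 578 and 564 in Mo17. All its Mo17xB73 arrays were above all its B73xMo17 arrays, and all Mo17 arrays above all B73 arrays. pcna1 was lower in B73 than in Mo17 (-0.76, SE 0.250, adjusted p = 0.0187), a call kept after trimmed mean scaling (adjusted p = 0.0403) and lost after quantile normalization and median centring (0.0674 and 0.0602), and also without B73 replicate 1 or Mo17 replicate 2 or 3 (0.0608 to 0.0941). It was lower in B73xMo17 than in Mo17xB73 (-0.93, SE 0.250, adjusted p = 0.0194), and that call held after each scaling at -0.76 to -0.77 but not without B73xMo17 replicate 1 or 3 or Mo17xB73 replicate 2 or 3 (0.0731 to 0.110). Both clamp genes were thus lower in B73xMo17 than in Mo17xB73, and with all arrays they were the only replication genes called between the hybrids, where 25% of the list and 11.9% of all probe sets were called.

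The helicase subunit gene MCM6 was higher in B73 than in Mo17 on its brightest probe set (0.83, adjusted p = 0.00249), whereas its other tested probe sets differed by -0.03 and 0.02, so the direction for MCM6 is uncertain. The helicase subunit gene MCM7 (-0.15, adjusted p = 0.773) and the origin recognition genes orc1 (0.15, adjusted p = 0.489), orc2 (-0.64, adjusted p = 0.193), orc3 (-0.18, adjusted p = 0.447) and orc4 (-0.23, adjusted p = 0.297) were not called between the inbreds as deposited. After median centring orc1 was called, at 0.38 higher in B73, and without Mo17 replicate 1 orc2 (-1.01, adjusted p = 0.0451) and orc4 (-0.37, adjusted p = 0.0367) were called lower in B73. The differences of these 5 genes between the hybrids lay between -0.34 and 0.02, none called, and MCM7 was called lower in B73xMo17 without the arrays of replicate 1 (-0.55, adjusted p = 0.0463).

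**Figure D4:**
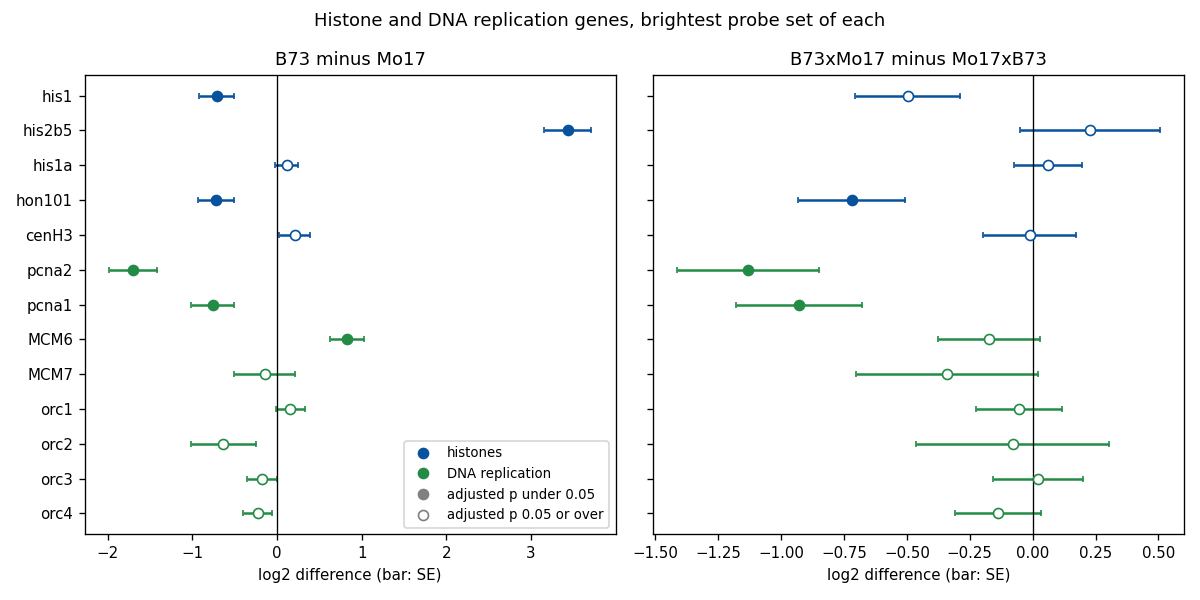
Log2 differences of 5 histone and 8 DNA replication genes, brightest probe set of each, with standard errors, for B73 minus Mo17 on the left and B73xMo17 minus Mo17xB73 on the right. Filled points have an adjusted p under 0.05, and in the right panel these are hon101, whose call ended after scaling, pcna2 and pcna1, all below 0.

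The replication clamp and his1 can be set beside the wider cell cycle and chromatin genes. Of 9 cell cycle genes 5 were tested, and the cyclin genes cyc1, cyc2, cyc3 and cycD1 were too dim. B73 was lower than Mo17 in cdc2, the cyclin-dependent kinase gene (-0.78, adjusted p = 0.00754), and higher in the D-type cyclin gene cycD2 (0.55, adjusted p = 0.0301), which is 40% of the genes tested beside 43.1% of all probe sets. Leaving out Mo17 replicate 3 ended the cdc2 call (adjusted p = 0.0626), and the cycD2 call ended without any 1 B73 array or Mo17 replicate 1 or 2 (adjusted p = 0.0547 to 0.0910). Between the hybrids only wee1, a gene for an inhibitor of that kinase, was called, lower in B73xMo17 (-0.70, adjusted p = 0.0338). That call ended after each scaling (adjusted p = 0.0511 to 0.0726) and without B73xMo17 replicate 1 or 3 or Mo17xB73 replicate 2 or 3 (adjusted p = 0.0921 to 0.163).

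Of 43 chromatin assembly and modification genes 41 were tested, and 4 were higher and 5 lower in B73 than in Mo17, with a median of -0.20. The smallest p values were those of sdg110 (-0.70, adjusted p = 0.00148) and set105 (-0.70, adjusted p = 0.00172), both named as SET-domain genes. The 9 called genes are 22.0% of those tested, beside 43.1% of all probe sets, but the count depended on 1 array: without Mo17 replicate 1, 3 were higher and 21 lower, which is 58.5% beside 57.7% of all. With the replicate block 4 were higher and 10 lower, and after scaling 9 or 10 were higher and 5 lower. These are 34.1% beside 47.9% of all with the block, and 34.1% to 36.6% beside 47.6% to 48.5% after scaling. Between the hybrids 1 was higher and 1 lower in B73xMo17, which is 4.88% beside 11.9% of all. There the counts were 1 higher and 4 lower with the replicate block, 3 and 7 without Mo17 replicate 1, 1 and 11 without the arrays of replicate 1, and 4 and 2 or 3 after scaling, and 0 without Mo17xB73 replicate 3. Of all 11747 tested probe sets, 2649 were called without Mo17 replicate 1 and 2854 without the arrays of replicate 1, against 1398 with all arrays. After scaling 19.8% to 21.6% of all were called, and without Mo17xB73 replicate 3 the number was 751.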

How the data were processed

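Endosperm RNA of 12 pools was labelled with biotin and hybridised to 1-colour Affymetrix maize arrays, per the labels' protocols. The intensity values analysed are the deposited linear signals, which the submitters' processing notes say the authors made with MAS5. Its version and scaling target are not given in these sources. From 17734 probe sets, 113 controls and then the dimmest 33.3% by mean signal were left out. The constant of 10.6 is the 20th percentile of all values. All 4 genotypes entered 1 fit with limma 3.58.1 in R 4.3.3 (lmFit, eBayes with a mean-variance trend), with 8 residual degrees of freedom and a median of 19.8 with the prior. Standard errors of dose comparisons came from the delta method. Tests were two-sided. On simulated data, 2-fold changes were recovered at 79% for B73 minus Mo17, 78% for B73xMo17 minus Mo17xB73, 82% and 83% for departure from dose in B73xMo17 and in Mo17xB73, and 67% for its difference. The simulated arrays were independent, without shared dates or brightness differences, and the parents were equal in the dose comparisons. These shares therefore need not hold for the data. P-values measure the spread between pools from 3 dates.

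Arrays with the same replicate number share a crossing date, as the labels' protocols state, and are therefore paired. Their deviations from the genotype means had correlations of 0.0434 to 0.412 (18 pairs), against -0.322 to 0.167 for arrays of different dates (36 pairs). Genes were named by the annotation of the platform and RefSeq's maize gene table. It gave 1 gene to 1452 probe sets, several to 1 and none to 16281. Named were all member probe sets, every tested histone and DNA replication gene, of other lists the 2 genes with the smallest p between inbreds, and the 5 named genes closest to a member. glb1, ole1, wee1, PLTP, per-1 and the dim genes were named after their values were seen. The members and lists were chosen with earlier results of these data known.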

Additional observations from a re-analysis of the deposited data

How the results depend on the processing

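The 45 results of the members (5 probe sets in 9 comparisons) were recomputed under alternatives, giving 1125 values. Of these, 1016 kept direction and side of the threshold, 88 kept direction and changed side, and 21 changed sign, in each case with neither value called. The replicate block changed no call or direction of a member. The 3 fits that leave out a whole crossing date, and all alternatives for the gene lists, were added after the data were seen. Causes of the changes below were not tested.

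Scaling (quantile, median centring, trimmed mean, in that order) ended the calls of Mo17xB73 minus B73 for his1 set 1 (0.34, 0.33, 0.35) and his1 set 3 (0.39, 0.38, 0.41) and gave one to his2b5 (-0.84, -0.85, -0.83). The same his1 calls ended with no filter (0.57, 0.62) and with no variance trend (0.57, 0.62), and the first also with a constant of 1 (0.58). With only the groups compared in the fit, his1 set 2 passed in B73xMo17 minus Mo17xB73 (-0.69) and Mo17xB73 minus B73 (0.59), and his1 set 1 no longer did in B73xMo17 minus Mo17 (-0.63). The his2b5 departure from dose in Mo17xB73 was 1.68 with the expectation on the log2 scale, and that of his1 set 1 changed sign after median centring (-0.0154).

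Counts of called probe sets after those scalings were 2538, 2323 and 2355 for B73xMo17 minus Mo17xB73 (1398 as deposited, 2167 with only those groups), 1040, 954 and 991 for B73xMo17 minus B73 (586) and 1231, 1269 and 1258 for Mo17xB73 minus Mo17 (760). For departure from dose they were 183, 143 and 146 in B73xMo17 (84; 35 with no filter, 169 with the replicate block, 336 on the log2 scale), 101 after quantile normalization in Mo17xB73 (67; 33 with a constant of 1, 24 with no filter, 164 with the block, 512 on the log2 scale), and 596, 529 and 522 for the difference between hybrids (263; 145 with no filter, 506 with the block).

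Leaving out 1 array or 1 date gave counts of 2716 to 6780 for B73 minus Mo17, 468 to 2854 for B73xMo17 minus Mo17xB73, 316 to 878 for B73xMo17 minus B73, 1535 to 6067 for B73xMo17 minus Mo17, 530 to 1649 for Mo17xB73 minus Mo17, 1496 to 4546 for Mo17xB73 minus B73, 34 to 923 and 19 to 140 for the departures in B73xMo17 and Mo17xB73, and 129 to 676 for their difference. For his1 set 1 it gave -1.04 to -0.52 (B73 minus Mo17), -0.75 to -0.37 (B73xMo17 minus Mo17xB73), -1.05 to -0.37 (B73xMo17 minus Mo17), 0.46 to 0.74 (Mo17xB73 minus B73) -0.44 to -0.0464 (departure in B73xMo17), -0.11 to 0.20 (B73xMo17 minus B73) and -0.12 to 0.16 (departure in Mo17xB73). For his1 set 2 it gave -1.43 to -0.62 (B73 minus Mo17), -1.02 to -0.49 (B73xMo17 minus Mo17xB73), -1.60 to -0.63 (B73xMo17 minus Mo17), -0.69 to -0.12 (Mo17xB73 minus Mo17), 0.41 to 0.85 (Mo17xB73 minus B73), -0.82 to -0.24 (departure in B73xMo17) -0.62 to -0.20 (difference of departures), -0.33 to 0.0979 (B73xMo17 minus B73) and -0.38 to 0.0738 (departure in Mo17xB73). For his1 set 3 it gave -1.19 to -0.41 (B73xMo17 minus Mo17), -0.75 to -0.27 (Mo17xB73 minus Mo17) 0.43 to 0.73 (Mo17xB73 minus B73), -0.39 to 0.16 (departure in B73xMo17) and -0.0763 to 0.28 (difference of departures). For his2b5 it gave -0.17 to 0.58 (B73xMo17 minus Mo17xB73), -0.96 to -0.21 (Mo17xB73 minus B73), 0.38 to 1.13 (departure in Mo17xB73) and -0.99 to -0.24 (difference of departures). For pcna2 it gave -1.39 to -0.96 (B73xMo17 minus Mo17xB73), -0.68 to 0.0111 (Mo17xB73 minus Mo17), -0.76 to -0.27 (departure in B73xMo17) -0.25 to 0.39 (departure in Mo17xB73) and -0.87 to -0.45 (difference of departures).

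With 3 arrays per genotype the number of arrays limits precision. The his2b5 signal in Mo17 lies close to the filter, and 3 of 6 his1 probe sets fell under it.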
